A study of Mus musculus with 8 samples.

Results

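The ribosomal protein genes of the cytosolic ribosome were followed in IMCD3 cells, an established mouse kidney line (inner medullary collecting duct), with and without serum. Their probes were chosen by the gene name printed in the scanner files: Rpl or Rps followed by a digit, or Rpsa, Rplp0, Rplp1 or Rplp2, with the Rps6k kinases left out. The rule took 138 of 41174 probes, under 83 gene names. Of these names 82 entered the test among 16081 genes in all, and 1 did not: Rpl3l, the copy of Rpl3 made in heart and skeletal muscle, was not well above background. Starved cells had spent 48 h without fetal calf serum, which makes this line grow cilia, and unstarved cells were kept in 10% serum, diluted 1:10 on the day before and collected while subconfluent. Serum and cell density therefore differ between the groups at once. No transgene or deletion is named for either group, and both come from 1 cell line. By its title the series looks for effectors of FOXJ1, a transcription factor known for motile cilia.

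A ribosome joins a small subunit, which reads the message, to a large subunit, which forms the peptide bond, and nearly every ribosomal protein is present once in each. The exception is the stalk, where copies of P1 and P2 sit on P0 and recruit translation factors. Messages of these genes start with a C followed by a run of pyrimidines, the terminal oligopyrimidine tract, through which mTORC1 and LARP1 control their translation and stability, so serum is known to act on them largely after transcription. The arrays read the amount of message and not its translation.

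The starts of the genes that passed the test, except Rps27l, and of Rpl28, which did not pass, are shown first. They run from 20 bases before to 10 bases after the start in the RefSeq promoter table (build GRCm38.p6). Capitals mark a pyrimidine tract that begins at the start base with C and runs on for at least 4 more C or T. The starts are printed 5′ to 3′ on the strand of the gene.
Rpl14 (chr9:120571497-120571526, plus strand): cggcagggcgggccctctctCTTCTCgctg
Rpl35a (chr16:33056462-33056491, plus strand): gcgcggcggggcttgccttcCTCTTTCCgc
Rpl28 (chr7:4792945-4792974, plus strand): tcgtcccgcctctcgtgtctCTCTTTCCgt
Rpl27 (chr11:101442225-101442254, plus strand): ccggaacgctctgttcctgtctgctgctcg
Rps2 (chr17:24720043-24720072, plus strand): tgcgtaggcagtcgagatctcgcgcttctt
Rpl7l1 (chr17:46782647-46782676, minus strand): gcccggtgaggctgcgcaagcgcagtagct

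Rpl14 and Rpl35a, both lower in starved cells, carry the tract at a listed start. So does Rpl28, whose estimate was the highest of the members and did not pass the test. Rpl35a also has listed starts without the tract, and Rps27l has none with it. Among names with a listed start, 2 of the 6 called genes had a tract, as did 11 of the 57 others. A link between tract and ratio was not tested. The table matched 63 of the 83 names, with 75 starts. A tract began exactly at 13 of the 75 starts (17.3%), against 2.51% of all 32851 starts in the table, and a listed start that is a few bases off hides it. The ETS-type motif CCGGAAG, searched on both strands over the 300 bases of each promoter, was in 34.7% of the members' promoters and in 8.86% of all. AAGATGGC, a YY1-type motif, was in 10.7% and 2.75%, CACGTG (the E-box of MYC-type factors) in 10.7% and 7.15%, and TATAAA in 9.33% and 13.6%. These are matches of letters and not sites of binding.

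Each of the 4 arrays held 1 starved and 1 unstarved sample, in 2 dyes, which gives 8 samples in 2 groups of 4. By the sample labels arrays 1 and 3 are replicate 1, with starved RNA in Cy5, and arrays 2 and 4 are replicate 2, with starved RNA in Cy3, so replicate and dye orientation cannot be told apart. The series text calls the replicates biological and speaks of a dye swap within each pair, which differs from the labels. The collecting duct line could be checked by its markers: 11 of 11 listed epithelial genes were measured, against 2 of 8 fibroblast genes, 0 of 4 endothelial genes and 4 of 4 leukocyte genes. Among these markers Krt7 (-1.07), Krt8 (-0.64) and the leukocyte gene Ptprc (-0.50) were lower in starved cells, Cdh1 (0.67), Epcam (0.61) and Hoxb7 (0.55) were higher, and the fibroblast gene Postn was well above background in unstarved samples only. With median centring Krt7 was the 1 of them that passed, and their part in the results was not tested. Ratios are on the log2 scale, starved over unstarved, after loess normalization, with the moderated standard error (SE) of n = 2 replicates. Loess removes from each array the trend of the ratio with brightness over all genes, which can leave a trend within a list. Adjusted p-values are those of limma over all 16081 genes, with 0.05 as the threshold.

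Of the 82 members tested, 6 were lower in starved cells (7.32%), 0 were higher and 76 did not pass. Among all genes tested 13.4% were lower, 18.1% were higher and 31.4% passed in either direction, so the share of members called lower was below the background share. The estimates nevertheless lay mostly on one side: 73 of 82 members were below 0, against 49.3% of all genes, with a median of -0.22 against 0.005 for all genes. They were also small. The 95% interval of all 82 members lay within a 2-fold difference either way, with outermost bounds of -0.96 and 0.53; 91.4% of all genes had such an interval. With each array centred on its median in place of loess, 0 of the 82 intervals lay within those bounds, against 35.3% of all genes. At an unadjusted p under 0.05 by limma, 17 of the 82 members were lower and 0 were higher with loess, against 18% and 22.9% of all genes.

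**Figure D1:**
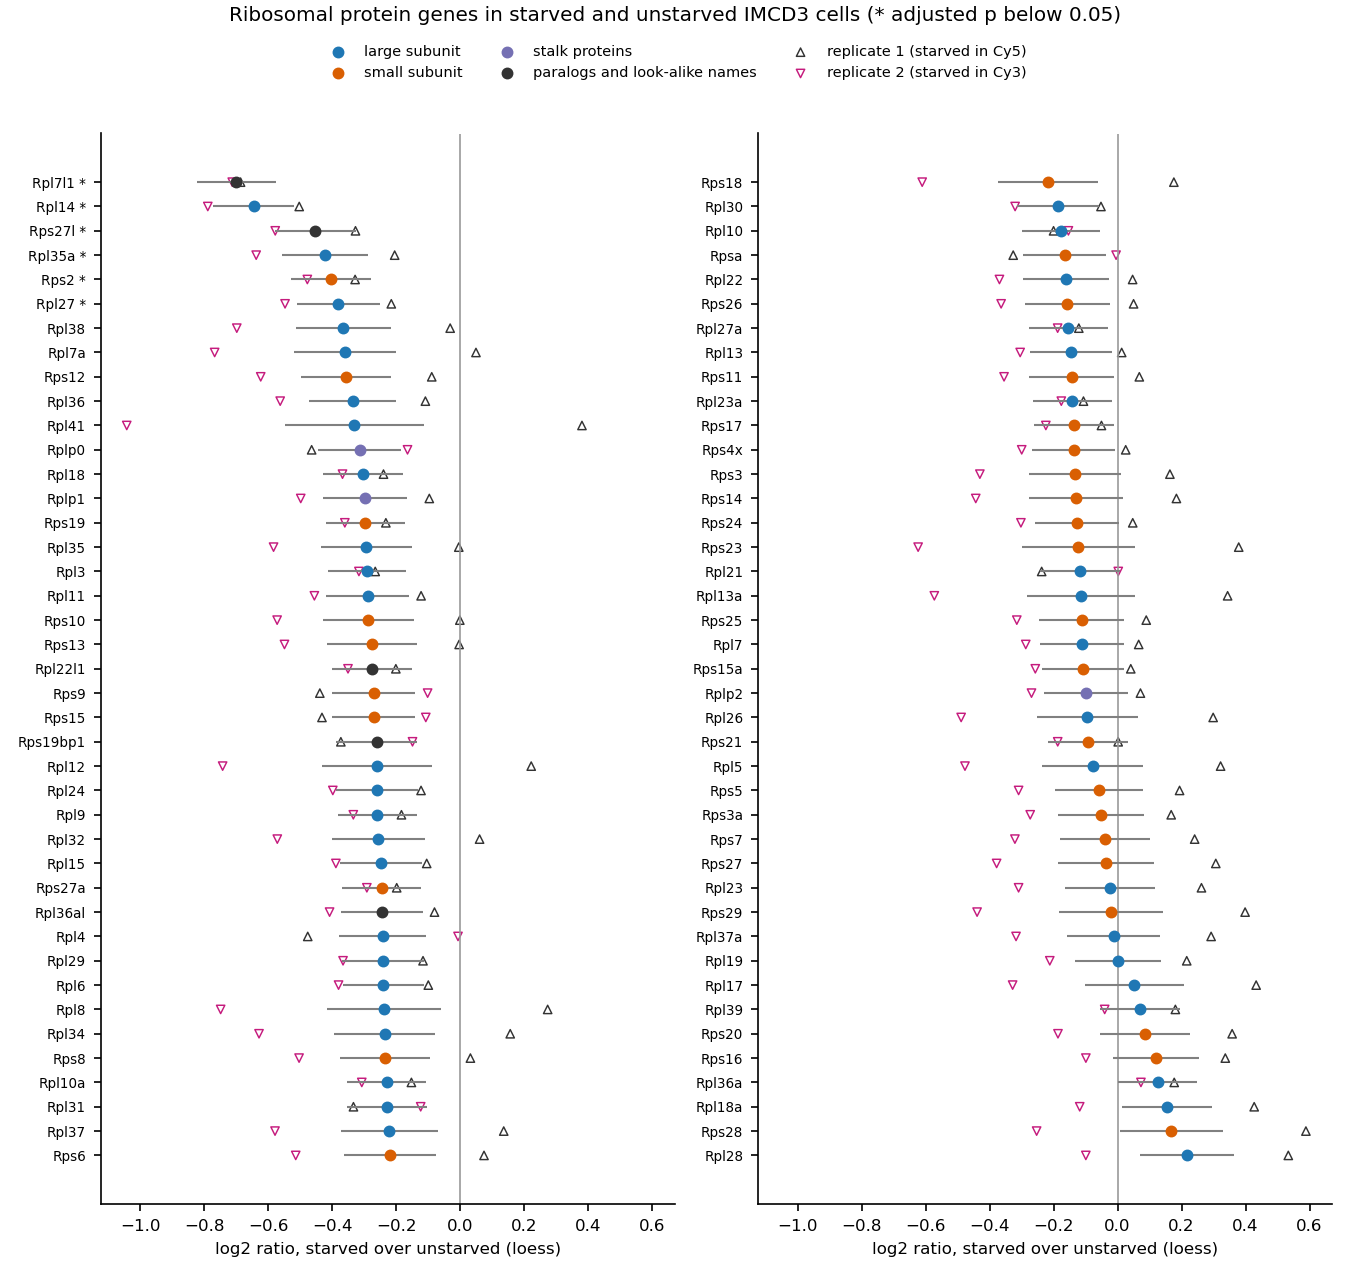
Log2 ratio of starved over unstarved cells for the 82 ribosomal protein genes, ordered from lowest to highest; filled points are the mean of 2 replicates with the moderated SE as a bar, coloured by role, and open triangles are the replicates. The 6 starred genes passed the test, 73 of 82 means lie left of 0, and for most genes replicate 2 lies left of replicate 1.

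Large subunit genes numbered 43, of which 3 fell, 0 rose and 40 did not pass, with a median of -0.23. Rpl14 had normalized log2 levels of 13.48, 13.53, 13.38 and 13.25 in the starved samples of arrays 1, 3, 2 and 4, and of 13.99, 14.03, 14.17 and 14.04 in the unstarved ones. All starved samples were below all unstarved ones. Its ratio was -0.65 ± 0.13 (SE, n = 2), a level 1.57-fold higher in unstarved cells (limma adjusted p = 0.00103).

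Rpl35a, one of the genes mutated in Diamond-Blackfan anaemia, had levels of 16.68, 16.67, 16.24 and 16.30 in starved samples and of 16.91, 16.85, 16.84 and 16.97 in unstarved samples, in the same array order. The groups did not overlap, but the gap was wider in replicate 2 (-0.64) than in replicate 1 (-0.21), and the mean was -0.42 ± 0.13 (limma adjusted p = 0.0243). Rpl27 had starved levels of 17.53, 17.41, 17.18 and 17.07 and unstarved levels of 17.76, 17.60, 17.70 and 17.64. Its groups did not overlap either, and its ratio of -0.38 ± 0.13 was the smallest of the 6 calls (limma adjusted p = 0.0336). Of the 82 members, 22 had every starved level below every unstarved level, against 23.5% of all genes.

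Among the other large subunit genes, Rpl3, which lies near the peptidyl transferase centre, had -0.29 ± 0.12 (limma adjusted p = 0.0833) and did not pass. Rpl5 and Rpl11, which carry 5S RNA into the subunit and bind MDM2 when assembly is disturbed, had -0.08 ± 0.16 and -0.29 ± 0.13. Rpl13a, often used as a reference gene in RT-PCR, had -0.11 ± 0.17, made up of 0.34 in replicate 1 and -0.57 in replicate 2. Its mean near 0 therefore came from replicates of opposite sign. Rpl10, which completes the subunit, had -0.18 ± 0.12, with nearly the same value in replicate 1 (-0.20) and replicate 2 (-0.15).

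Rpl28 and Rpl41 were chosen after their values were seen, for the highest estimate and the widest spread. Rpl28, a large subunit protein that yeast lacks, had starved levels of 17.66, 17.63, 17.40 and 17.45 and unstarved levels of 17.06, 17.15, 17.49 and 17.56, so starved was higher in replicate 1 and lower in replicate 2. Its mean, 0.22 ± 0.15, was the highest of the members and did not pass (limma adjusted p = 0.287). Rpl41, which encodes a very short basic peptide, had the widest spread, with 0.39 and 0.37 on arrays 1 and 3 and -1.12 and -0.96 on arrays 2 and 4. Its mean of -0.33 ± 0.22 thus has the largest SE of the members.

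Small subunit genes numbered 31, of which 1 fell, 0 rose and 30 did not pass, with a median of -0.14. The gene that fell was Rps2, a protein of the mRNA entry side: its starved levels were 17.41, 17.37, 17.20 and 17.25 and its unstarved levels 17.78, 17.66, 17.67 and 17.74. The groups did not overlap and both replicates were below 0 (-0.33 and -0.48), with a mean of -0.40 ± 0.12 (limma adjusted p = 0.0204). A second Rps2 probe gave -0.50 ± 0.14 (limma adjusted p = 0.0105 among 24610 probes). Rps2 has many near-identical processed copies in the mouse genome, and how much of the signal comes from them was not tested.

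Rps6, the target of the S6 kinases below mTORC1, had 0.07 in replicate 1 and -0.51 in replicate 2, with a mean of -0.22 ± 0.14 (limma adjusted p = 0.268). Rpsa, which also serves as the laminin receptor precursor, had -0.17 ± 0.13 by its brighter probe and did not pass. Rps4x, whose copy on the Y chromosome exists in primates and not in mice, had -0.14 ± 0.13. Rps27a, made as a fusion with ubiquitin, had -0.25 ± 0.12 and Rps28 had 0.17 ± 0.16; neither passed, and both were chosen after their values were seen. Rps28 had the highest replicate 1 value of the members (0.59) and was below 0 in replicate 2 (-0.25).

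None of the 3 stalk genes passed by limma (2 had an unadjusted p under 0.05), with a median of -0.30. Rplp0, the base of the stalk and a common reference gene, had starved levels of 16.53, 16.48, 16.57 and 16.60 and unstarved levels of 16.98, 16.95, 16.74 and 16.76. The groups did not overlap, yet the mean of -0.32 ± 0.13 missed the threshold (limma adjusted p = 0.0732), and here the lower value was in replicate 1 (-0.47 against -0.17). Its probe is printed 10 times on each array, and before normalization the log2 ratios of these spots had an SD of 0.020 to 0.033 within an array. That spread between spots was smaller than the gap between the replicates. Rplp1 had -0.30 ± 0.13 and Rplp2 had -0.10 ± 0.13. Rplp1 was below 0 on all 4 arrays and Rplp2 on the 2 arrays of replicate 2.

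Of 6 paralogs and look-alike names 5 were tested: 2 fell, 0 rose and 3 did not pass, and all 5 were below 0 in both replicates. Rpl7l1, a relative of Rpl7 that is found in pre-ribosomes, had starved levels of 14.05, 14.14, 14.10 and 14.02 and unstarved levels of 14.77, 14.80, 14.81 and 14.74. No sample overlapped the other group, and both replicates gave nearly the same value (-0.69 and -0.71), the closest among the 6 calls. Its mean of -0.70 ± 0.12 (limma adjusted p = 0.000377) was the lowest of all members, and a second probe gave -0.65 ± 0.13. Rps27l, a p53-induced copy of Rps27, had starved levels of 16.38, 16.43, 16.11 and 16.23 and unstarved levels of 16.73, 16.73, 16.68 and 16.81. Its groups did not overlap, and it fell by 0.45 ± 0.13 on the log2 scale (limma adjusted p = 0.0118).

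Paralogs were set against their partners on the same array, with loess. Rpl7l1 minus Rpl7 was -0.59, Rps27l minus Rps27 was -0.42 and Rpl36al minus Rpl36a was -0.37, each below 0 on all 4 arrays. Rpl7 itself had -0.11, Rps27 had -0.04, and Rpl36a had 0.12 and was the 1 member above 0 on all 4 arrays (36.1% of all genes were). Rpl36al, an intronless copy of Rpl36a, had -0.25 ± 0.13. Rpl22l1, which can replace Rpl22, had -0.28 ± 0.12, and its difference from Rpl22 (-0.12) was below 0 on only 2 of 4 arrays. Rps19bp1 is a nucleolar partner of Rps19 and SIRT1, not a ribosomal protein, and had -0.26 ± 0.13. Rpl39, an exit tunnel protein, had 0.07 ± 0.13. These differences between partners were not tested, and with median centring Rpl36a and Rpl39 were below 0, as given below. There Rps27l and Rpl36al stayed below their partners on all 4 arrays. Rpl7l1 was instead above Rpl7 on array 2 (-1.50 against -1.56) and array 4 (-1.41 against -1.51). The Rpl7l1 probe was also dimmer than that of Rpl7, with a mean log2 level of 14.43 against 17.42.

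The gap between the replicates was wider than the members' median ratio. The median over members was 0.02 in replicate 1 and -0.36 in replicate 2, and 73 of 82 members were lower in replicate 2. In 42 members the sign turned from above 0 in replicate 1 to below 0 in replicate 2, which 13% of all genes did. Arrays of one replicate differed by a median of 0.040 (replicate 1) and 0.022 (replicate 2) on the log2 scale, against 0.41 between the replicates. In all, 33 of 82 members (40.2%) were below 0 on all 4 arrays, against 33.2% of all genes. Across the 82 members the replicates correlated at r = -0.09 (Spearman rho = -0.09), a description over genes that share 4 arrays.

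**Figure D2:**
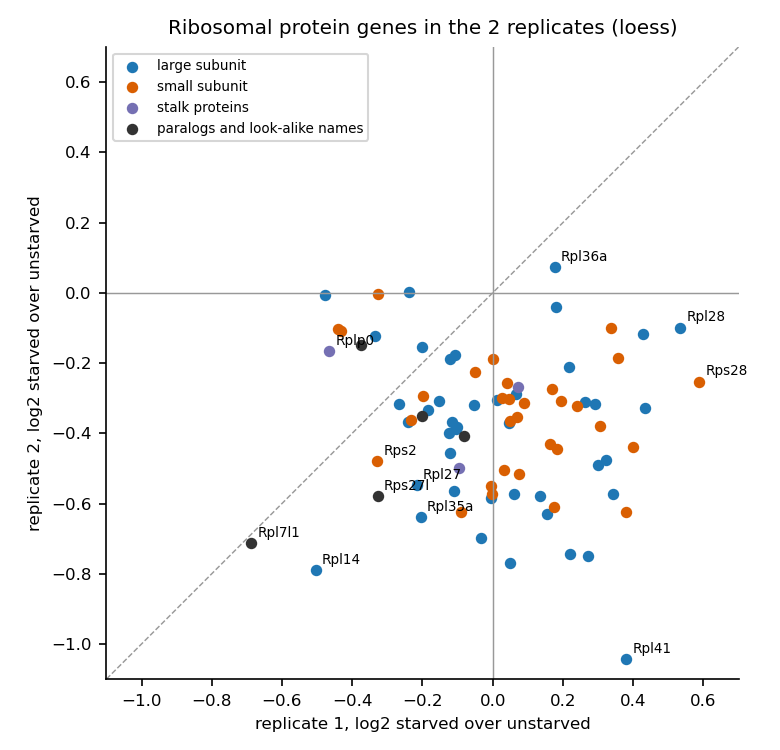
Log2 ratio of starved over unstarved cells in replicate 2 against replicate 1 for the 82 ribosomal protein genes, with the dashed line at equal values. Most points lie below the line, and the 6 called genes are at the lower left, where both replicates are below 0.

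Brightness moved with this split under median centring. Of the 82 members 70 were very bright, defined as a mean level in the top 5% of the genes tested; 0 of 147 member spots per array were saturated and 0 carried an outlier mark. With each array only centred on its median, in place of loess, the members' median was 0.39 in replicate 1 and -1.54 in replicate 2, and the 734 other very bright genes had medians of 0.40 and -1.20. The mean over both replicates was then -0.58 for the members, -0.40 for the other very bright genes and -0.08 for all genes. Under this normalization 74 of the 82 members were above 0 in replicate 1 and below 0 in replicate 2 (57.4% of all genes were). By limma 0 members passed (1.55% of all genes did, 0.721% as lower). The SE was the same for every member there (0.43), so passing depended on the size of the mean and not on a gene's own replicates. At an unadjusted p under 0.05 limma gave 2 members there, against 6.79% of all genes. All 82 members then had an estimate below 0, as did 60.3% of all genes. With loess the 734 other very bright genes had medians of 0.04 in replicate 1 and -0.09 in replicate 2. The members had 0.02 and -0.36 with loess, and the cause of this difference was not tested.

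**Figure D3:**
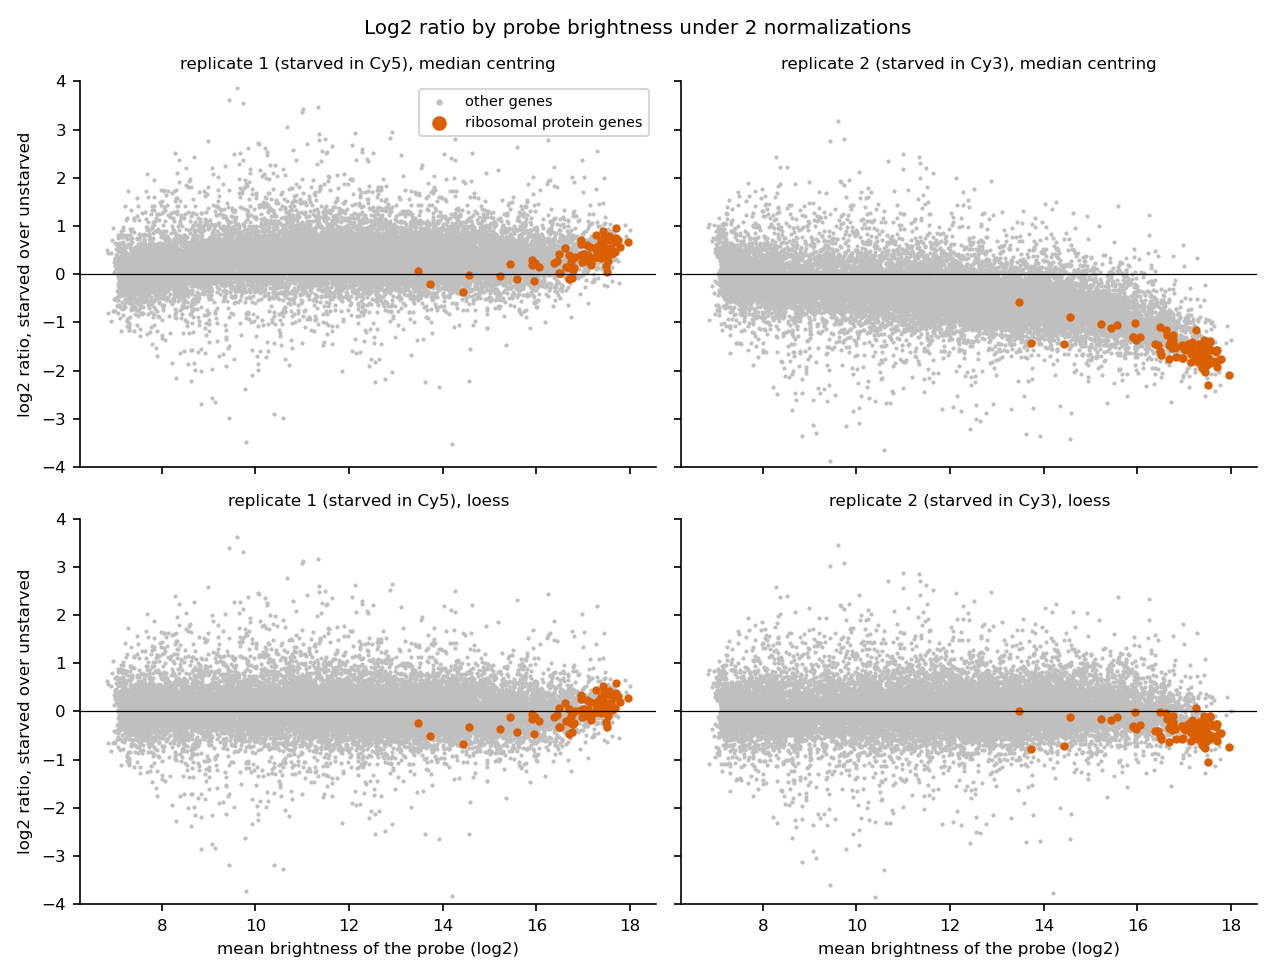
Log2 ratio of starved over unstarved cells against mean brightness of the probe on the log2 scale, for the ribosomal protein genes (orange) and the other genes tested (grey, clipped at 4 either way), by replicate and normalization. With median centring the bright end bends up in replicate 1 and down in replicate 2; with loess most of the bend is gone, and the members' medians are 0.02 and -0.36.

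The 6 called members had median-centred means of -0.91 (Rpl7l1), -0.85 (Rps2), -0.82 (Rps27l), -0.82 (Rpl27), -0.81 (Rpl14) and -0.80 (Rpl35a). Only Rpl7l1 and Rpl14 were below 0 in both replicates there, with -0.37 and -0.19 in replicate 1. Rpl36a and Rpl39, above 0 with loess, were at -0.31 with median centring. Fitting the loess curve without the ribosomal protein probes, so that they could not pull it, called the same 6 genes (13.6% of all genes were lower) and gave a median of -0.24. With Agilent's processed signals 3 of the 6 passed, Rpl14, Rpl7l1 and Rps27l, with 13.7% of all genes lower. The deposited value table gave the same 3, with 13.9%. It also gave the same members' median as the processed signals (-0.16), so it is not a separate check. The mean over a gene's probes gave 12 of the 82 members as lower, against 13.6% of all genes. Without array 1 there were 10 calls, the same 6 with Rpl36, Rpl38, Rpl7a and Rps12, against 14.8% of all genes. With the replicate as a random block 9 members were lower, and 10 with no replicate block, against 14.4% and 15.7%.

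The series text would make each replicate a dye-swapped pair of arrays. Taking arrays 1 and 2, and 3 and 4, as the replicates left the estimates as they were but called 70 members lower and 8 higher. All genes were called more often as well, 43.3% lower and 45.7% higher. Arrays 1 with 4 and 2 with 3 gave 67 lower and 8 higher members, against 42.6% and 45.1%. Neither of these pairings is that of the sample labels. Both average 1 array of each labelled replicate, so the gap between the labelled replicates drops out of the error. Whether the labels or the series text is right was not settled.

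Many members are represented by several probes, and the brightest stood for the gene above. Testing each of 24610 probes by itself, 22 of 134 measured member probes were lower (16.4%, against 13.2% of all probes) and 1 was higher (16.4% of all were). Among the 45 member probes that were not very bright, 15 were lower (33.3%, against 13.1% of all such probes). Of the 45, 1 was higher (16.5%). Among the 89 very bright ones 7 were lower, against 13.5%. The 15 include several probes for genes whose brightest probe did not pass, and these genes are named after their values were seen. With median centring 0 of 134 passed by limma, and 14 had an unadjusted p under 0.05, against 7.04% of all probes.

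For 3 genes whose probes lay far apart in value, chosen after the values were seen, both probes are shown by the first 30 bases of each 60-base probe, 5′ to 3′, with the position of the whole probe per the file headers (build mm8). No capitals are used.
Rps20 brighter probe (chr4:3761639-3761698): atcagtattgagccaggagttgaggttgaa
Rps20 dimmer probe (chr4:3758777-3758836): tgcaatgactacattgaatgtcccttagtt
Rpsa brighter probe (chr9:119977169-119977228): ttaaagggaaacttacacaatgtccggagc
Rpsa dimmer probe (chr9:119980547-119980606): acctggccagattgggattttgtgtcccag
Rpl22 brighter probe (chr4:151173849-151173908): aacctcggcggaggagtcgtgaccatcgaa
Rpl22 dimmer probe (chr4:151177703-151177762): gctgtaaacaacattaaccctgggttgatt

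Both probes of each pair carry the same gene name but lie 2862, 3378 and 3854 bases apart and share no run longer than 5 bases; whether each lies in an exon, intron or UTR was not assigned, since no annotation of build mm8 was used here. For Rps20, a protein of the subunit head, the brighter probe gave 0.09 (limma adjusted p = 0.695 among probes) and the dimmer one -0.74 (0.000485). For Rpsa the values were -0.17 (0.382) and -0.79 (0.000136). For Rpl22, an RNA-binding protein of the large subunit, the dimmer probe was higher in starved cells, with 0.57 and both replicates alike (0.58 and 0.55; limma adjusted p = 0.00246), while the brighter had -0.16. The dimmer probe was lower on all 4 arrays for Rps20 and Rpsa and higher on all 4 for Rpl22.

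Rps24, mutated in some families with Diamond-Blackfan anaemia, had -0.13 by its brightest probe and -0.80 and -0.68 by its other probes, both built on transcript records other than a RefSeq mRNA. Rps19, the gene most often mutated in that disease, had -0.30 and -0.69. Rpl27a had -0.15 and -0.68, and Rpl37 had -0.22 and, by a dim probe, 0.14. Over the 40 genes with more than 1 measured probe, the dimmest was lower than the brightest on all 4 arrays in 9 and higher in 2; with median centring the counts were 2 and 3. Of the 9, Rpsa alone was lower on all 4 arrays with median centring too. The mean difference there was still below 0 for Rps20 (-0.49), Rps24 (-0.37), Rpl27a (-0.30) and Rps19 (-0.25), on 3, 2, 2 and 3 of the 4 arrays.

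**Figure D4:**
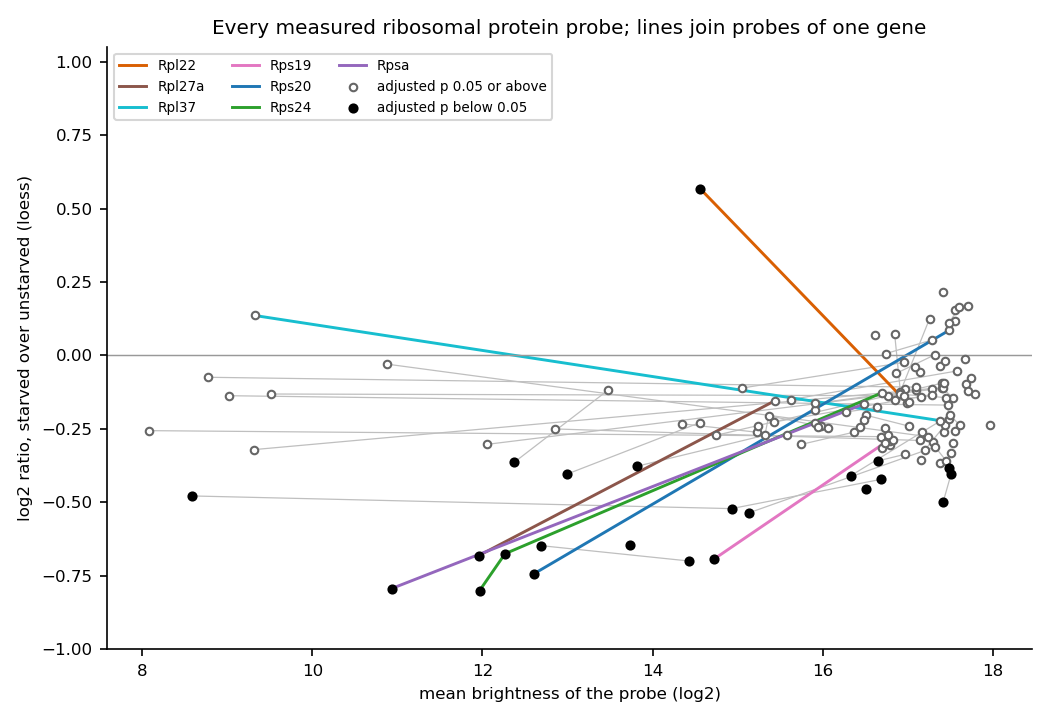
Log2 ratio of starved over unstarved cells with loess against mean brightness on the log2 scale, for the 134 measured ribosomal protein probes; lines join probes of one gene, and filled points passed the test among 24610 probes. Filled points gather below 0 at intermediate brightness, with 1 exception, the dimmer Rpl22 probe at 0.57.

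Genes that make ribosomes passed the test in larger number. Of 46 measured assembly and nucleolar genes 36 fell and 0 rose, with a median of -0.46. Of all genes tested 13.4% were lower and 18.1% higher. The fall was led by Noc3l (-0.96 ± 0.12), a factor of large subunit maturation, Lyar (-0.89) and Rrp9 (-0.88), a part of the U3 particle. RNA polymerase I, which makes the rRNA precursor, had 3 of 12 measured genes lower and 0 higher: Polr1e (-0.63), Polr1b (-0.56) and Polr1d (-0.35), with a median of -0.26. The median of the members, -0.22, lay between that of all genes and those of both lists. With median centring 0 genes of either list passed by limma, against 1.55% of all genes. By limma 11 and 0 had an unadjusted p under 0.05 there, against 6.79% of all genes. The medians were then -0.73 and -0.46, so the members, at -0.58, lay below the polymerase.

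Mitochondrial ribosomal proteins, which belong to another ribosome, had a median of -0.21, close to the members'. Of 79 measured, 16 fell and 1 rose, against 13.4% and 18.1% of all genes. Mrps25 (-0.66 ± 0.12), Mrpl15 (-0.60) and Mrpl22 (-0.57) fell most, and Mrps6 rose by 0.50 ± 0.12. With median centring 0 of the 79 passed by limma and 0 had an unadjusted p under 0.05, against 1.55% and 6.79% of all genes. Their median was then -0.46 against -0.58 for the members. Of these 79, 56 were below 0 in both replicates, as were 38 of the 82 members and 36.7% of all genes; 10 of the 79 were very bright. Fau, which makes the ribosomal protein eS30 as a fusion, had 0.08 and the ribosomal scaffold Rack1 had -0.10, and neither passed.

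A list of 22 other genes, mostly translation factors, was put together as the class whose messages carry the pyrimidine tract. Their tracts were not looked up here. Of the 22, 2 were lower and 1 higher, against 13.4% and 18.1% of all genes, with a median of -0.15. Npm1, a nucleolar chaperone, fell by 0.64 on the log2 scale and Eif2s3x, a subunit of eIF2, by 0.48, and Tpt1, a growth-related protein, rose by 0.47. The elongation factors Eef1a1 (-0.14) and Eef2 (0.20), named after their values were seen, did not pass. With median centring 0 of the 22 passed by limma and 1 had an unadjusted p under 0.05, against 1.55% and 6.79% of all genes. Of 45 measured genes that control mTORC1 and messages with the tract, 14 rose and 3 fell, against 18.1% and 13.4% of all genes. Their median was 0.09. The largest differences were in Ddit4 (2.38 ± 0.12), an mTORC1 inhibitor, Deptor (1.61 ± 0.13), an mTOR-binding inhibitor, and Rragd (1.13 ± 0.12), a Rag GTPase; Ddit4 and Deptor also passed with median centring.

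**Figure D5:**
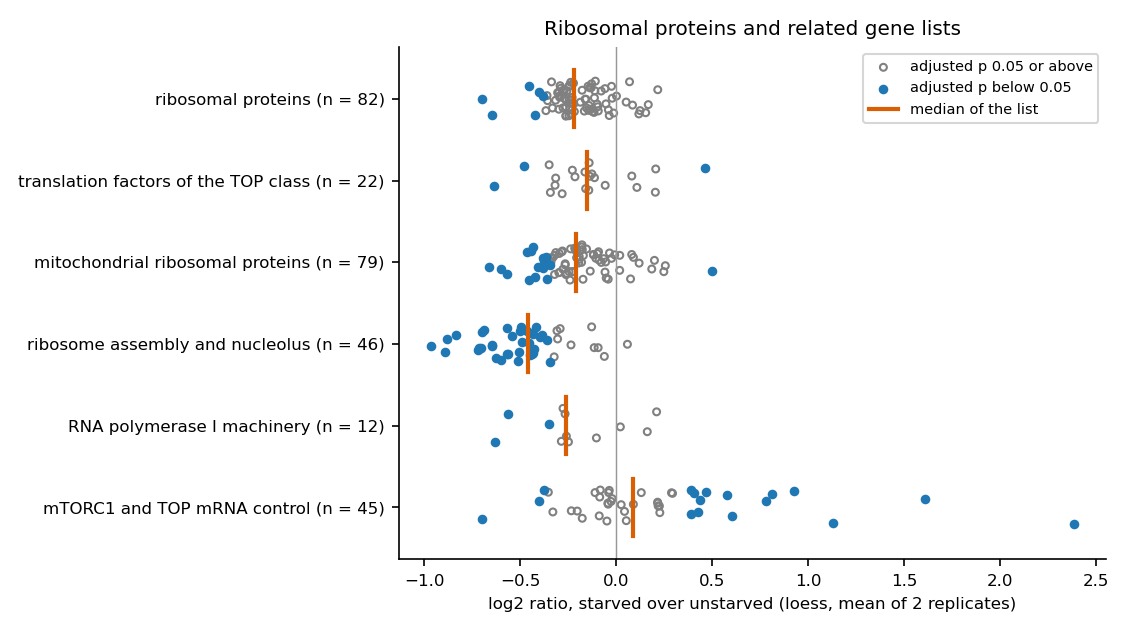
Log2 ratio of starved over unstarved cells (mean of 2 replicates, loess) for the 82 ribosomal proteins and 5 related lists; filled points passed the test, open points did not, the bar is the median of the list, and the vertical scatter has no meaning. The ribosomal proteins gather near their median of -0.22, while the assembly and nucleolar genes lie lower, at a median of -0.46.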

How the data were processed

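The authors deposited scanner intensity values that were not normalized, per the file headers: each spot's mean signal and its median local background, from Feature Extraction 9.5.3.1. The authors' value table holds linear intensity values of unknown scaling (not given in the sources used here). Its ratios gave the same members' median as Agilent's processed signals (-0.16), while 4975 genes passed against 4897. Each labelling began with 500 ng total RNA. Each hybridisation is deposited as 2 samples with identical files, and only the channel of the labelled dye was read. All arrays share 1 slide and 1 scan.

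With limma 3.58.1 (R 4.3.3), background was corrected by normexp, offset 50, and each array by loess, span 0.3; control and outlier-marked spots had weight 0. Loess takes most genes at each brightness as unchanged, so a shift shared by most bright genes would be removed, and ribosomal proteins make up a part of the bright genes. A probe was kept if all 4 arrays of a group placed it well above background, and the brightest stood for a gene. Names came from a RefSeq table (GRCm38.p6) by accession for 24375 probes, by symbol for 6301 and by synonym for 2426; 8072 kept the name on the array. Arrays of a replicate were averaged before lmFit and eBayes, two-sided, with Benjamini-Hochberg adjustment. With 1 residual degree of freedom, the error leans on a spread estimated over all genes (with loess, prior SD 0.18 and 15.0 degrees of freedom). With median centring every member had the same SE (0.43), so the error there was a pooled one. The precision is limited by the 4 arrays. Single-channel levels are loess and Aquantile normalized.

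The members and gene lists were chosen with earlier results of these data known. The rule named the called subunit genes with the largest differences (up to 5 lower and 3 higher each), all stalk proteins and Rpsa, each paralog beside its partner (Rpl3, Rpl10 and Rps4x among the partners), Rps6, Rpl5, Rpl11 and Rpl13a, and the 3 largest calls of each other list; other names are said to be chosen after their values were seen, except those that belong to a count, such as Rps19bp1 and Rpl36. Deviations of same-numbered samples correlated at -0.297 across genes, but these samples carry opposite dyes, so the correlation cannot test the pairing. Alternatives changed the normalization, background, filter, probe rule, pairing and arrays used. Figures were drawn with matplotlib 3.10.9.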

Additional observations from a re-analysis of the deposited data

Results flagged for a closer look

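Rpl36, a protein of the large subunit, had unstarved log2 levels of 17.09, 17.07, 17.10 and 17.26 on arrays 1, 3, 2 and 4, and the last stood apart from the other values by Dixon's test at the 95% level. Its groups did not overlap, and its ratio of -0.34 ± 0.14 (SE, n = 2) did not pass (limma adjusted p = 0.0697). The test was run on 80 groups of 4 values, of which chance marks about 1 in 20, and this was the 1 it marked. The 4 values are 2 replicates on 2 arrays each, so a replicate apart from the other would have its repeat beside it and would not be marked.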

How the results depend on the processing

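Median centring in place of loess left 0 members lower, moved the members' median to -0.58 and cut the genes called from 5054 to 249. Agilent's processed signals and the deposited value table each gave 3 members lower, the mean over a gene's probes 12, and testing every probe 22 lower and 1 higher. Pairing arrays 1 with 2 and 3 with 4 gave 70 lower, 8 higher and 14299 genes in all; pairing 1 with 4 and 2 with 3 gave 67, 8 and 14106. Leaving out each array in turn gave 6 to 10 members lower. Without the replicate block, on single-channel levels, 10 were lower; with the replicate as a random block 9 were, and Rpl35a was not among them. By itself, replicate 1 gave a median of 0.02 and replicate 2 of -0.36, with no test. Reversed estimates were Rps27 at 0.0316 with the processed signals and the value table, Rpl22 (0.20) and Rps20 (-0.33) with the mean of their probes, and, with median centring, Rpl36a (-0.31), Rpl39 (-0.31), Rpl28 (-0.23), Rps28 (-0.30), Rps20 (-0.36), Fau (-0.37) and Eef2 (-0.16); none of these passed. All 9 members above 0 with loess were below 0 with median centring. The cause of these changes was not tested. Of 1104 values of 65 named genes under the 17 alternatives with a test, 965 kept direction and call, 90 gained a call, 38 lost it and 11 reversed. Both replicates differ in dye orientation, so a biological difference between them and a dye effect cannot be told apart, and with 4 arrays a difference well under the typical interval half-width (0.28 with loess, 0.84 with median centring) could not be seen. No member spot was saturated, and 4 member probes were not well above background.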

Other observations

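Besides the named probes, the arrays carry 57 probes under other names (predicted genes, transcript clusters and cDNA clones) whose descriptions name a ribosomal protein or something similar to one. Of these 53 were tested, 26 were lower in starved cells (13.2% of all probes were) and 0 were higher, with a median of -0.35 and a range of -0.68 to 0.02. All 9 that are described as S2 or similar were lower, between -0.63 and -0.37, next to -0.40 for Rps2 itself. Of 5 described as L7a or similar 2 were lower, and of 4 described as L17 or similar 0 were, with values of -0.17 to 0.02. With median centring 0 of the 53 passed by limma, the S2 probes included, 11 had an unadjusted p under 0.05 and the median was -0.66. The S2, L7a and L17 probes were picked after their values were seen. Probes of one family can share sequence with each other and with the named gene, so they are not independent, and their part in the signal of the named gene was not tested.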
